A study of Homo sapiens with 9 samples.

Results

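The FOS, JUN and EGR immediate early genes are transcription factor genes that cells switch on within minutes of a growth factor, cytokine or stress signal, before any new protein is needed. The group holds the 10 genes FOS, FOSB, FOSL1, FOSL2, JUN, JUNB, JUND, EGR1, EGR2 and EGR3, which were found by symbol among the 29740 genes of the count table, where each had 1 row. The list was chosen by gene family with the fold changes of these same 3 comparisons already known, so levels and differences of the 10 genes are given as a description and without p-values. The table gives symbols only, with no other identifiers.

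RNA was sequenced from HMEC-1, an immortalised human dermal microvascular endothelial cell line. The groups were untreated cells (CTRL), cells given 50 µM trimethylamine N-oxide (TMAO), a gut microbiome-derived metabolite, for 24H, and cells given the same dose for 48H, with 3 libraries in each. All cells came from this 1 line and no library had a genetic change. The study combined the controls of its 2 time-points into 1 group, so TMAO and time in culture cannot be told apart. Its methods state that cells were kept in serum-starved medium during TMAO treatment, and do not state the medium of the controls. If that medium differed, TMAO and serum cannot be told apart either. The study's methods state in general that its data came from independent experiments, at least 3 of them, without naming the libraries, and the labels do not say whether the 3 libraries of a group were separate cultures. If they were not, p-values given for other genes measure only technical spread.

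FOS and JUN proteins pair through a leucine zipper to form AP-1, which binds the TGACTCA site, and JUN proteins can also pair with each other. EGR proteins are zinc finger factors that bind GC-rich sites. Transcription of FOS and EGR1 is driven largely by the ERK kinase cascade through serum response factor (SRF) and its ELK partners at CArG boxes, while JUN protein is activated by JNK. The mRNAs are short-lived, and the pathway is restrained by phosphatases such as DUSP1 and by Sprouty proteins. In endothelium these factors are best known for responses to growth factors, shear stress and inflammatory cytokines.

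The promoters of the genes at the extremes of the results are shown because CArG boxes and cyclic AMP response elements (CRE) are the known inputs of this family: among the 8 genes with enough counts to be fitted, FOS, FOSB and EGR1 had the largest differences at 24H, FOSL2 had the smallest, and JUN was the most abundant. Each is the RefSeq sequence from 250 bases before to 50 bases after the annotated start in GRCh38.p14, read 5′ to 3′ on the gene's strand. Capitals mark CArG boxes, TGACG (the CRE half-site, or CGTCA where it lies on the other strand), TGACTCA (the AP-1 site) and TGACATCA (the AP-1-like site of JUN). FOS lies at chr14:75278578-75278877 and FOSB at chr19:45467746-45468045, both on the plus strand. FOSL2 lies at chr2:28392608-28392907 and EGR1 at chr5:138465229-138465528, also on the plus strand, and JUN at chr1:58783998-58784297 on the minus strand. Not printed are JUNB at chr19:12791236-12791535 on the plus strand, JUND at chr19:18281573-18281872 on the minus strand and the 3 starts of EGR2 on the minus strand of chromosome 10.
FOS: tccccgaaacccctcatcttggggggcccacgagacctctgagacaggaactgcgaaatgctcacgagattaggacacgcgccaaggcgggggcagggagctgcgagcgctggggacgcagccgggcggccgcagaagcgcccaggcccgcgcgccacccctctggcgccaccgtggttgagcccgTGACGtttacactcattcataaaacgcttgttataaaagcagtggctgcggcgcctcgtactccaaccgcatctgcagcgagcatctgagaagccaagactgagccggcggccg
FOSB: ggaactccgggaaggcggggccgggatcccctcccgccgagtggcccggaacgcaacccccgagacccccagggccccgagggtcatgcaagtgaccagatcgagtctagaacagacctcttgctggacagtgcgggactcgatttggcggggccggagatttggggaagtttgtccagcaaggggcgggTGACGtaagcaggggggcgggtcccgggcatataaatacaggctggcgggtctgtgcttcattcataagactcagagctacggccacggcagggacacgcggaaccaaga
EGR1: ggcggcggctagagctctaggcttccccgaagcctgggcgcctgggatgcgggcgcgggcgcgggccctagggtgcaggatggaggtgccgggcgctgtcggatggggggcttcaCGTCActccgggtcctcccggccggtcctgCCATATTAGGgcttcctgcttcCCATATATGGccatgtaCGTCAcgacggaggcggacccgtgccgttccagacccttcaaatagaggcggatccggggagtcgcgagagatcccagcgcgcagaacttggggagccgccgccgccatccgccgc
FOSL2: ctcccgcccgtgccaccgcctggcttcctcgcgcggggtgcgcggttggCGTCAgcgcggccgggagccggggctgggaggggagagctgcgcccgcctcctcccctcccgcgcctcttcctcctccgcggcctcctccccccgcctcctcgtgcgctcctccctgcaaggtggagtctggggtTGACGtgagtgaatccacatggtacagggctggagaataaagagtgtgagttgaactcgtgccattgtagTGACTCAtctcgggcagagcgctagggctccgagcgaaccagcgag
JUN: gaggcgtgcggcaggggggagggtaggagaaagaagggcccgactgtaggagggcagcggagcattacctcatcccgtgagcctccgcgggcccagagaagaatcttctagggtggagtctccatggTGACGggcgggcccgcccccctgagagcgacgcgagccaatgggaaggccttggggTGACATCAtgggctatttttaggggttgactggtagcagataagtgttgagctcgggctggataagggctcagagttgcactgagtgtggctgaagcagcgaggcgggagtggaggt

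Promoter entries of 8 of the 10 genes were used, with 10 entries in all because EGR2 had 3 starts. Entries on chromosome 8, where EGR3 lies, were left out of the search, so nothing is said of the EGR3 promoter. FOSL1 had no entry. All 8 held TGACG in at least 1 entry, a motif found in 24.6% of the 35116 promoters of the table and in 31.5% of the 19073 whose GC content lay in the range of these genes. In FOS the half-site lay 64 to 60 bases before the start, and in FOSB 60 to 56 bases before it. FOSL2 held it 66 to 62 bases before the start as well, and EGR1 held it at the same place on the other strand.

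The EGR1 promoter held 2 CArG boxes, at 105 to 96 and 83 to 74 bases before the start. A CArG box was found in 1.29% of all promoters, and 2 or more in 11 of them (0.0313%). The third start of EGR2 held 1 CArG box, 71 to 62 bases before it, and the other two starts held no motif of the search. No CArG box was found in the windows of FOS, FOSB, FOSL2, JUN, JUNB or JUND. The windows begin 250 bases before the start, and sequence further upstream was not searched. These promoters can therefore not be said to lack the box.

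The JUN promoter held TGACATCA 67 to 60 bases before the start, a motif of 2.61% of all promoters. Among the 8 genes searched, the full CRE (TGACGTCA) was found only in JUND, 200 to 193 bases before the start. Its letters include the half-site on both strands, and it was found in 1.85% of all promoters. TGACTCA was found only in FOSL2, at bases 5 to 11 counted from the start as base 1, against 4.95% of all promoters. The EGR motifs GCGTGGGCG (0.795% of all promoters) and GCGGGGGCG (5.07%) were not found in any of the 10 entries. Both strands were searched for every motif, and a match of letters is a description of the sequence only.

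**Figure D1:**
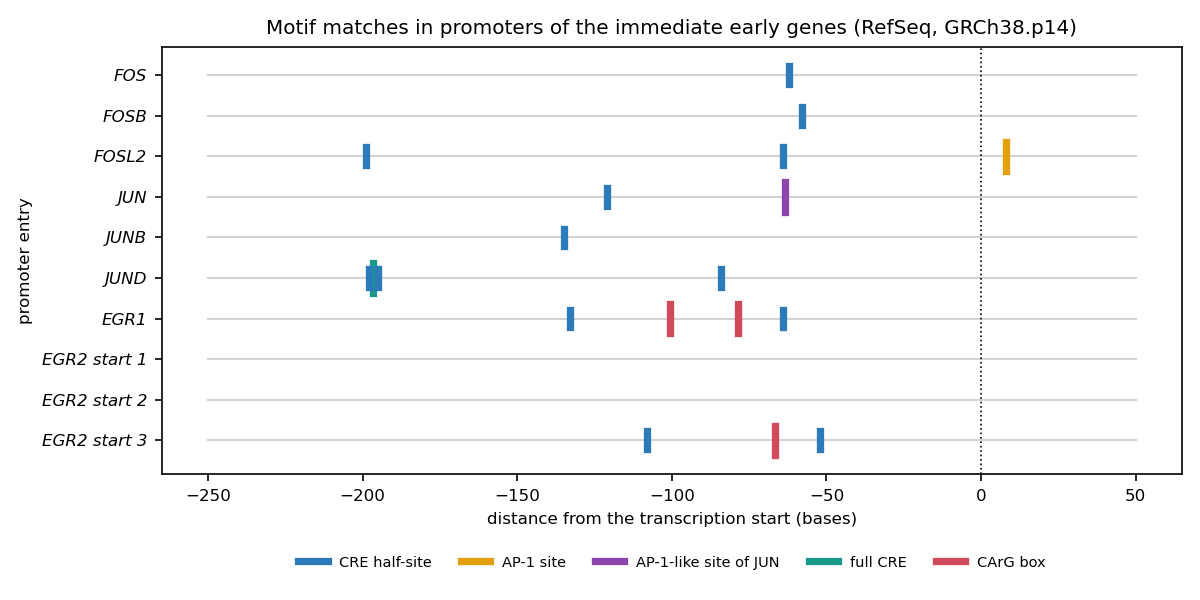
Positions of the motif matches in the promoter windows of the 8 genes whose entries were used. The x axis gives bases from the annotated start, with 1 line per promoter entry, as given by RefSeq. The 2 CArG boxes of EGR1 lie 105 to 74 bases before its start, and the half-sites nearest the start in FOS, FOSB, FOSL2 and EGR1 all lie between 66 and 56 bases before it. The half-site marks inside the full CRE of JUND overlap it.

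Sequencing depth ran from 25205756 to 36927373 estimated counts per library. Ribosomal RNA genes took 31.5% of the counts in TMAO 24H replicate 1 and 1.64% to 7.46% in the other 8 libraries, and the 24H fold changes are therefore also given without that library. All 14 endothelial markers were expressed, and their summed normalised counts ran from 90020 to 101800 in CTRL, 90680 to 96940 at 24H and 80860 to 88430 at 48H. Fibroblast and mural markers, of which 3 of 10 averaged under 10 normalised counts, summed to 31360 to 36280 in CTRL, 31640 to 34110 at 24H and 21070 to 23060 at 48H. Of the 8 leukocyte markers, 6 averaged under 10 normalised counts and 1 of these was at 0 in every library, and the list summed to 592.8 to 679 in CTRL, 657.1 to 699.1 at 24H and 675.1 to 716.9 at 48H. The 6 epithelial markers summed to 23240 to 25400, 21940 to 23310 and 19120 to 21590. The endothelial, fibroblast and epithelial sums were lower at 48H in every library than in any control. COL1A1 and COL1A2 (means 20630 and 8983 in CTRL) made up most of the fibroblast sum, and KRT18 (20040) most of the epithelial sum. At any fold by edgeR at 48H, 7 of 14 endothelial markers were lower and 0 higher. Of 8 fibroblast and mural markers tested 2 were lower and 1, THY1, higher, and of 6 epithelial markers 1 was lower and 0 higher. The part of these lower sums in the 48H results was not tested. In bulk RNA, fewer cells expressing a gene and less RNA per cell cannot be told apart.

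Levels were compared between genes per kilobase of the longest annotated transcript (GENCODE 29), as normalised counts, which are counts scaled to a common library size. In CTRL, JUN was highest at 3160 ± 147 per kilobase (SD, n = 3), followed by JUND at 1550 ± 89.8. EGR1 (687 ± 34.4), FOSL2 (650 ± 31.1) and FOSL1 (628 ± 32.6) came next, and their ranges over the control libraries overlapped. Within each control library EGR1 was the highest of these 3 neighbours, while the order of FOSL2 and FOSL1 varied. JUNB stood at 440 ± 17, FOS at 82.9 ± 7.33 and FOSB at 13.6 ± 0.784.

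EGR2 (1.45 ± 1.66) and EGR3 (0.998 ± 0.593) were close to the limit of detection and overlapped. Per kilobase, JUN and JUND led the AP-1 genes of untreated HMEC-1, and FOSL1 and FOSL2 stood above FOS in every library. At 24H the order changed at EGR1, which at 333 ± 56.4 per kilobase stood below FOSL2 (654 ± 20.4) and FOSL1 (570 ± 17.5) and overlapped JUNB (361 ± 10.1). At 48H EGR1 (811 ± 184) again overlapped FOSL2 (745 ± 24.3) and FOSL1 (735 ± 26).

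**Figure D2:**
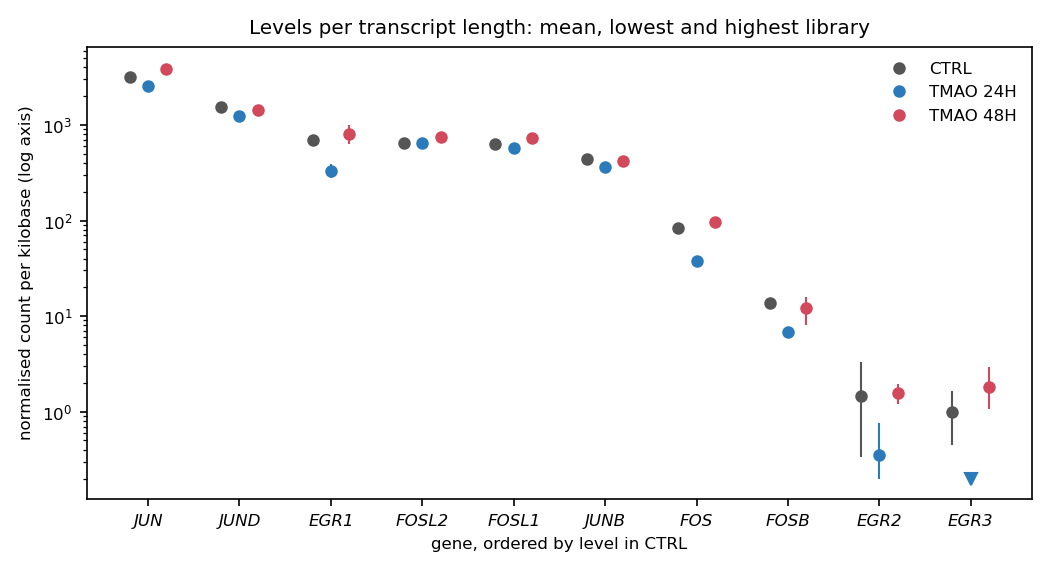
Normalised counts per kilobase of transcript (log axis) for each of the 10 genes in CTRL, TMAO 24H and TMAO 48H, as the mean of 3 libraries with the range of the libraries. The down-pointing triangle marks EGR3 at 24H, which had no count, and the range of EGR2 at 24H is cut at the axis because its lowest library was at 0. JUN is highest in every group and EGR1 changes its place at 24H.

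Among the 8 genes with enough counts for the fit, the differences from CTRL at 24H were largest in FOS, FOSB and EGR1. FOS, the founding partner of JUN in AP-1, had 168.4, 197.1 and 171.3 normalised counts in CTRL and 76.18, 75.29 and 92.21 at 24H. All 3 libraries at 24H lay below every control. The log2 fold change was -1.14 (SE 0.127, 95% interval -1.41 to -0.863), the 16th lowest of 14740 genes tested.

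FOSB, a FOS relative known from neurons and bone, was scarce, with 54.51, 48.78 and 50.38 normalised counts in CTRL and 28.01, 27.21 and 22.38 at 24H. The groups did not overlap, and the log2 fold change of -0.99 (SE 0.247, 95% interval -1.52 to -0.454) had a wider interval than that of FOS. FOSB was not past the adjusted threshold of the fit.

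EGR1, a factor that activates tissue factor and growth factor genes in vessels, had 2147, 2269 and 2053 normalised counts in CTRL and 1230, 877.1 and 1029 at 24H. Every library at 24H was lower than every control, with a log2 fold change of -1.05 (SE 0.139, 95% interval -1.34 to -0.745), the 29th lowest of all genes tested.

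JUN, JUNB and JUND had smaller differences at 24H, and of the 3 only JUN was past the adjusted threshold at any fold. JUN had 11190, 11720 and 10680 normalised counts in CTRL and 9277, 8748 and 9094 at 24H, without overlap, and a log2 fold change of -0.31 (SE 0.0474). JUNB, which often opposes JUN in growth control, had 772, 833.3 and 795.9 in CTRL and 654.2, 639.5 and 675.9 at 24H, again without overlap, with a log2 fold change of -0.29 (SE 0.0555). JUND, the member expressed most steadily in resting cells, had 2705, 3031 and 2933 in CTRL and 2145, 2267 and 2585 at 24H. Its highest library at 24H was still below its lowest control, with a log2 fold change of -0.31 (SE 0.0715).

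The FOS-like genes FOSL1 and FOSL2, whose proteins lack the strong activation domain of FOS, differed least. FOSL1 had 988.1, 1095 and 1059 normalised counts in CTRL and 926.5, 946.1 and 983.9 at 24H, a log2 fold change of -0.14 (SE 0.0543) with the groups just apart. FOSL2 had 4386, 4559 and 4143 in CTRL and 4387, 4245 and 4519 at 24H. Its libraries overlapped, and the log2 fold change was 0.01 (95% interval -0.0903 to 0.104).

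EGR2 and EGR3, known for nerve myelination and lymphocyte tolerance, had too few counts for the fit. EGR3 had 13 counts summed over the CTRL libraries and 0 at 24H, which is at least 4.46-fold lower when a floor of 3 counts over the group is used. EGR2 had 13 counts in CTRL and 3 at 24H, a ratio of 0.224 with an exact 95% interval of 0.041 to 0.816 that covers counting error only. CTRL replicate 2 alone gave 9.956 normalised counts of EGR2 against 1.947 and 1.008 in the other controls, so the control sum rests largely on that library. The fourth relative, EGR4, was at 0 in all 9 libraries, which allows up to 3 counts in each.

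Of the 8 members tested, 2 (FOS and EGR1) were called lower at 24H, meaning an adjusted p under 0.05 in edgeR's quasi-likelihood test and at least a 1.4-fold change, against 0.0475% of all 14740 genes tested. At any fold 3 passed (JUN as well), against 0.095% of all genes. In 7 of 8 every 24H library was below every control, against 7.52% of all genes. The median log2 fold change of the 8 was -0.31, and that of all genes tested was -0.000421. These counts describe the choice of genes, since the genes were listed with this comparison known.

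The calls at 24H depended on single libraries. Without TMAO 24H replicate 2, no gene at all was called, while 690 genes had an unadjusted p under 0.05. EGR1 was not called either without CTRL replicate 1 or without CTRL replicate 2, and JUN passed at any fold in 1 of the 6 fits that left out a library of this comparison. Without the library rich in ribosomal RNA, the log2 fold changes at 24H were -1.09 for FOS, -1.04 for FOSB, -1.18 for EGR1 and -0.33 for JUN. They were -0.117 for FOSL1, 0.00733 for FOSL2, -0.282 for JUNB and -0.251 for JUND, and JUN no longer passed at any fold.

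**Figure D3:**
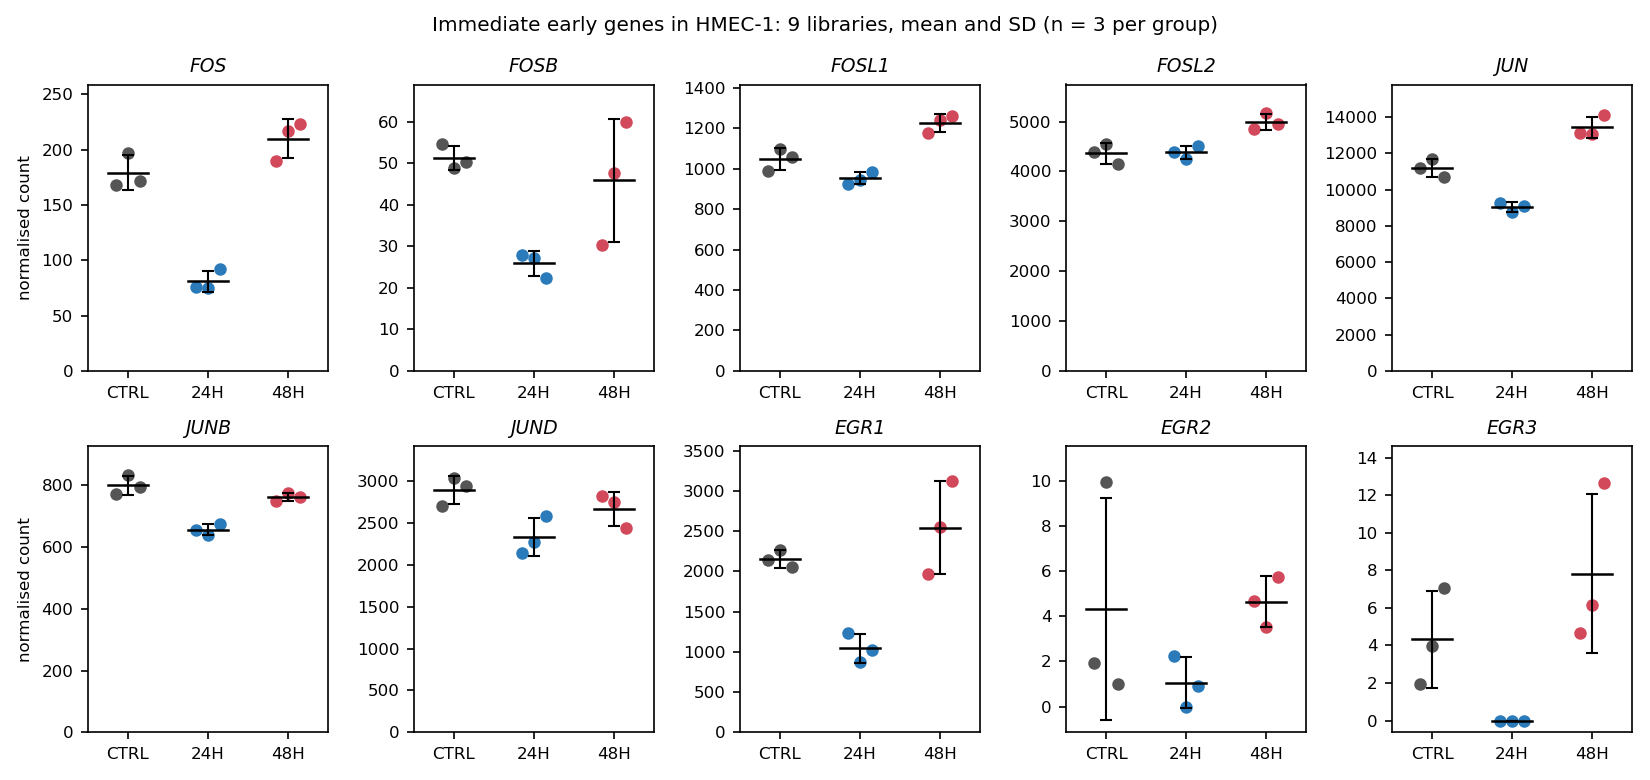
Normalised counts in each library (points) of CTRL, TMAO 24H and TMAO 48H for the 10 genes, with the mean of 3 libraries as a bar and the SD as a line. FOS, FOSB and EGR1 sit lower at 24H than in CTRL in every library, and the EGR2 and EGR3 panels reach only a few counts.

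At 48H FOS and EGR1 overlapped CTRL, with higher means. FOS had 189.7, 216.6 and 223.2 normalised counts, of which the lowest lay within the control range, and its log2 fold change against CTRL was 0.23 (95% interval -0.035 to 0.496). EGR1 had 1967, 2551 and 3121, with the lowest library below every control and the highest above them, and a log2 fold change of 0.24 (95% interval -0.0564 to 0.536). FOSB had 30.26, 47.56 and 59.84, with its lowest library near the 24H level, and a log2 fold change of -0.16 (95% interval -0.666 to 0.353) that turned to 0.063 without TMAO 48H replicate 1.

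Only FOSL1, FOSL2 and JUN lay above CTRL in every library at 48H. JUN had 13120, 13090 and 14100 normalised counts, a log2 fold change of 0.26 (SE 0.0474). FOSL1 had 1179, 1239 and 1263, a log2 fold change of 0.23 (SE 0.0543), and FOSL2 had 4850, 5171 and 4961, a log2 fold change of 0.20 (SE 0.0451).

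JUNB and JUND overlapped their controls at 48H. JUNB had 748.5, 775.9 and 762.9 normalised counts and a log2 fold change of -0.07 (SE 0.0554), and JUND had 2813, 2752 and 2438 and a log2 fold change of -0.12 (SE 0.0715). With a correction for GC content and length both values turned above 0, to 0.0621 and 0.0645, so no direction can be given. EGR2 had 13 counts at 48H, a ratio to CTRL of 1.06 (0.451 to 2.47), and EGR3 had 22, a ratio of 1.79 (0.861 to 3.86).

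By edgeR 0 of the 8 genes were called at 48H, against 1.8% of all genes in either direction, and 0 by DESeq2. At an unadjusted p under 0.05 in edgeR and any fold there were 3, against 3802 of all 14740 genes in either direction. At any fold 3 passed in the higher direction (FOSL1, FOSL2 and JUN), against 5.14% of all genes, and the same 3 had every library above CTRL, against 14.7%. FOSL1 lost its place without CTRL replicate 1 or TMAO 48H replicate 2, and FOSL2 without TMAO 48H replicate 2. EGR1 passed at any fold without TMAO 48H replicate 1, with a log2 fold change of 0.395.

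All 8 genes had higher means at 48H than at 24H, FOS and EGR1 by the most. The direct comparison of 48H with 24H sets no level against CTRL, whose libraries enter only the estimate of the spread, and gave a log2 difference of 1.37 (SE 0.127) for FOS, 1.29 (SE 0.14) for EGR1 and 0.83 (SE 0.249) for FOSB. JUN differed by 0.57 (SE 0.0475) and FOSL1 by 0.37 (SE 0.0544). JUNB (0.22, SE 0.0555), JUND (0.19, SE 0.0715) and FOSL2 (0.19, SE 0.0451) differed least, and JUND was the only one of the 8 with overlapping libraries. EGR3 went from 0 to 22 counts, at least 7.97-fold higher, and EGR2 from 3 to 13, a ratio of 4.71 (1.29 to 25.8).

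Of the 8 members, 3 (FOS, EGR1 and JUN) were called higher at 48H than at 24H, against 0.862% of all genes, and 6 passed at any fold, against 3.77%. In 7 every 48H library was above every 24H library, against 14.7% of all genes. The calls of FOS, EGR1 and JUN held in all 6 fits without 1 library of this comparison. FOSB was called without TMAO 48H replicate 1, with a minimum of 10 counts in every library and with the GC and length correction, and EGR3 was called with no expression filter. FOSL2 passed at any fold in 3 of those 6 fits and JUNB in 1. The comparisons at 24H and at 48H share the 3 control libraries, so the values stand side by side and no likeness between them is given.

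**Figure D4:**
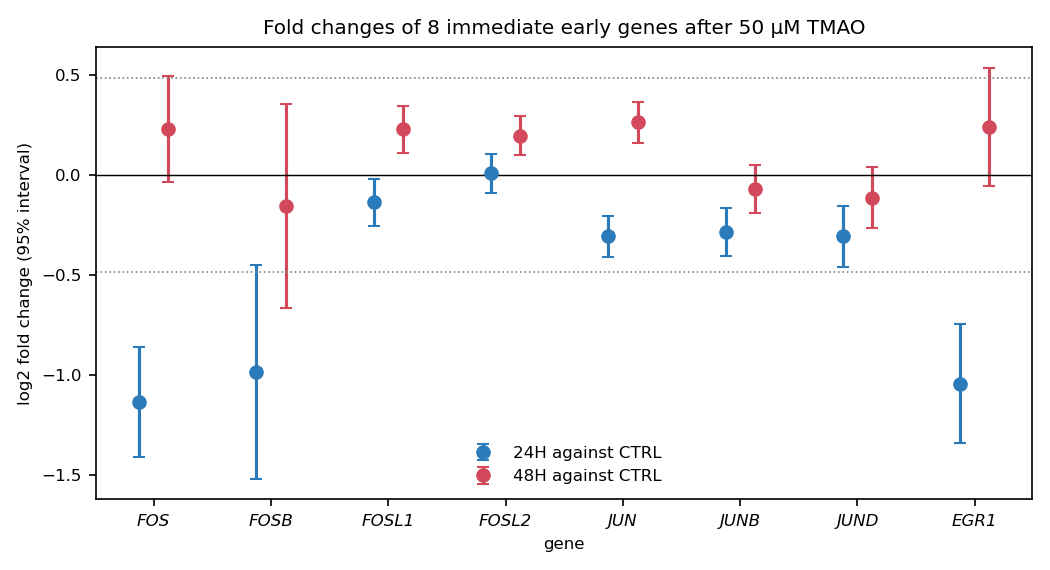
Log2 fold changes of the 8 members tested (points) with 95% intervals (lines) for TMAO 24H and TMAO 48H against CTRL, with dotted lines at the 1.4-fold threshold (0.485 on the log2 scale). FOS and EGR1 have intervals wholly below the lower dotted line at 24H, and the 48H intervals of FOSL1, FOSL2 and JUN lie above 0.

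The genes whose pattern over the 9 libraries was most like that of FOS, EGR1 and JUN were sought among 12322 other genes by Pearson's r of log2-scaled normalised counts. The 9 points share 3 groups, so r mostly follows the group means. Among the closest for FOS were CTGF (r = 0.989), LZTS3 (0.964), HES1 (0.955) and BDNF (0.954). CTGF, a matricellular protein gene, went from a mean of 42750 normalised counts in CTRL to 29240 at 24H and 48500 at 48H. For JUN they were DUSP1 (0.994), CYR61 (0.992), MYC (0.99), HBEGF (0.987) and ZNF398 (0.987). For EGR1 they were HES1 (0.982), PKD2 (0.974), VWF (0.973), CTGF (0.967) and WNT3 (0.959). VWF encodes von Willebrand factor, an endothelial clotting protein, and had mean normalised counts of 3378 in CTRL, 2531 at 24H and 3598 at 48H.

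Of the listed kinases and factors upstream of these genes, 0 had an mRNA past the adjusted threshold at 24H. Only 0.095% of all genes passed at 24H by edgeR, so a count of 0 does not set the lists of this and the next paragraph apart. The activity of the proteins was not measured. Of 19 genes of the ERK cascade, from the EGF receptor to the RSK kinases, 0 were past the adjusted threshold at any fold at 24H by edgeR or DESeq2. Without adjustment, 1 was lower and 1 higher with p under 0.05. Over all 14740 genes, edgeR gave an unadjusted p under 0.05 to 1067 at 24H, 3802 at 48H and 3256 between the time-points. DESeq2 passed 54, 1704 and 1238 genes at any fold in these comparisons. At 48H 2 were higher by edgeR, against 5.14% of all genes, namely RPS6KA3 (log2 fold change 0.25, adjusted p = 0.00376), which encodes a RSK kinase, and SOS2 (0.14, adjusted p = 0.0476), which loads RAS with GTP. DESeq2 did not call SOS2 (adjusted p = 0.0635). Between the time-points 0 passed by either tool, and 2 were higher without adjustment.

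Of 11 genes for SRF, ELK and CREB factors and their coactivators, 0 passed in any comparison by edgeR. Without adjustment there were 0 at 24H, then 1 lower and 1 higher at 48H, and 1 lower and 2 higher between the time-points. DESeq2 passed 0 at 24H, 1 lower and 1 higher at 48H, and 1 lower between the time-points. The JNK and p38 list, 14 genes tested, had 0 that passed at 24H by either tool and 1 that was lower without adjustment. At 48H MAPK9 (0.19, adjusted p = 0.0368) and MAPK14 (0.15, adjusted p = 0.0309), which encode JNK2 and p38 alpha, were higher, and MAPK13 (-0.59, adjusted p = 0.0362), for p38 delta, was lower. Between the time-points MAP3K1, a kinase upstream of JNK, was higher (0.19, adjusted p = 0.0441) by edgeR, a call that DESeq2 did not make (adjusted p = 0.0543).

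Of 30 other immediate early genes, those that passed were lower at 24H and mostly higher at 48H. At 24H 4 were lower, namely DUSP1 (log2 fold change -0.60, adjusted p = 0.0106), CYR61 (-0.54, adjusted p = 0.003), CTGF (-0.55, adjusted p = 0.003) and MYC (-0.33, adjusted p = 0.0493). Without TMAO 24H replicate 1, DUSP1 (-0.629, adjusted p = 0.0207), CYR61 (-0.589, adjusted p = 0.00687) and CTGF (-0.553, adjusted p = 0.00695) stayed past the threshold in edgeR, and MYC (-0.363, adjusted p = 0.0694) did not. By DESeq2 11 were lower, where it passed 54 genes in all. None was higher by either tool, and the median of the list was -0.237. At 48H 8 were higher and 1 lower, against 5.14% and 5.29% of all genes, led by DUSP1 (0.63, adjusted p = 0.000417), CYR61 (0.44, adjusted p = 0.000751), CITED2 (0.26, adjusted p = 0.00263) and BTG2 (0.23, adjusted p = 0.00305). The 1 lower gene was IER2 (-0.18), named after its value was seen. DESeq2 had 10 higher and 2 lower at 48H, where it passed 1704 genes in all. Without adjustment in edgeR 2 were lower as well.

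Between the time-points 14 of the 30 were higher by edgeR and 15 by DESeq2, against 3.77% of all genes by edgeR. There were 0 lower by either tool or without adjustment. This list, like the others, was chosen with earlier results of these data known. Its count beside the share of all genes is therefore a description only. CYR61 (0.99, adjusted p = 1.76e-06) and DUSP1 (1.23, adjusted p = 2.23e-06) led, with CTGF (0.73, adjusted p = 6.52e-06) and CITED2 (0.48, adjusted p = 1.8e-05). CYR61 and CTGF encode secreted matricellular proteins, and CITED2 encodes a transcriptional coregulator.

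The feedback inhibitors of MAP kinases, which are themselves induced by the pathway, include DUSP1 as well. Of 16 tested, DUSP1 and SPRY2 (-0.49, adjusted p = 0.0165), a Sprouty protein that restrains RAS signalling, were lower at 24H. Without TMAO 24H replicate 1, SPRY2 stood at -0.529 (adjusted p = 0.0379). At 48H 5 were higher, against 5.14% of all genes, including SPRY2 (0.48, adjusted p = 0.00109) and DUSP16 (0.23, adjusted p = 0.0161), a phosphatase that acts on JNK, and 1, DUSP4, was lower (-0.30, adjusted p = 0.00144), against 5.29%. Between the time-points 6 were higher and 1 lower, where 3.77% of all genes passed each way, with SPRY2 at 0.98 (adjusted p = 3.24e-06), DUSP5 at 0.60 (adjusted p = 0.000333) and DUSP6 at 0.33 (adjusted p = 0.000974). DUSP5 and DUSP6 are ERK phosphatases.

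Among the EGF receptor ligands, 4 were tested and HBEGF was higher at 48H than in CTRL (0.22, adjusted p = 0.0277) and than at 24H (0.48, adjusted p = 0.00014). At 24H 0 passed by edgeR, 1 was lower without adjustment and 1 by DESeq2. Of 11 other bZIP partners tested, 0 passed at 24H by either tool, and 3 were lower without adjustment. ATF3, a stress-induced partner of JUN, was higher at 48H (0.61, adjusted p = 0.00425) and between the time-points (0.67, adjusted p = 0.00195), and MAFK was lower at 48H (-0.21, adjusted p = 0.0477). NAB2, an EGR1-induced corepressor of EGR proteins, was higher at 48H (0.27, adjusted p = 0.0127) and, by edgeR, between the time-points (0.22, adjusted p = 0.043), where DESeq2 gave an adjusted p of 0.0552 and leaving out TMAO 24H replicate 1 gave 0.158. It was not past the threshold at 24H.

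Apart from FOSL1, genes known as AP-1 targets were lower at 48H where they passed. FOSL1 is itself on this list, and as a member it was higher at 48H (log2 fold change 0.23). Of 13 tested apart from FOSL1, EDN1, the endothelin gene, was lower at 24H (-0.42, adjusted p = 0.0454), and at -0.483 (adjusted p = 0.0207) without TMAO 24H replicate 1. At 48H 4 were lower, against 5.29% of all genes, and 0 were higher by edgeR or DESeq2 or without adjustment, against 5.14%. They included TIMP1 (-0.22, adjusted p = 0.00437), PLAUR (-0.23, adjusted p = 0.0229) and VIM (-0.24, adjusted p = 0.0247). TIMP1 and PLAUR act in matrix and clot proteolysis and VIM encodes an intermediate filament. Between the time-points 6 were lower and 2 higher, against 3.77% of all genes each way, one of them EDN1 (0.48, adjusted p = 0.000737).

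Known EGR1 targets, 12 tested, had 0 that passed at 24H by either tool, with 2 lower before adjustment. At 48H 3 were higher and 2 lower, against 5.14% and 5.29% of all genes, with ICAM1 (0.78, adjusted p = 2.09e-05), a leukocyte adhesion molecule, FGF2 (0.38, adjusted p = 0.000637) and TGFB1 (-0.34, adjusted p = 0.00217). Between the time-points 3 were higher and 1 lower (3.77% of all genes each way), with ICAM1 at 0.85 (adjusted p = 6.52e-06) and FGF2 at 0.47 (adjusted p = 9.46e-05). The lists overlap, since DUSP1, HBEGF, SRF, ATF3, NAB2 and PLAU each stand in 2 of them.

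**Figure D5:**
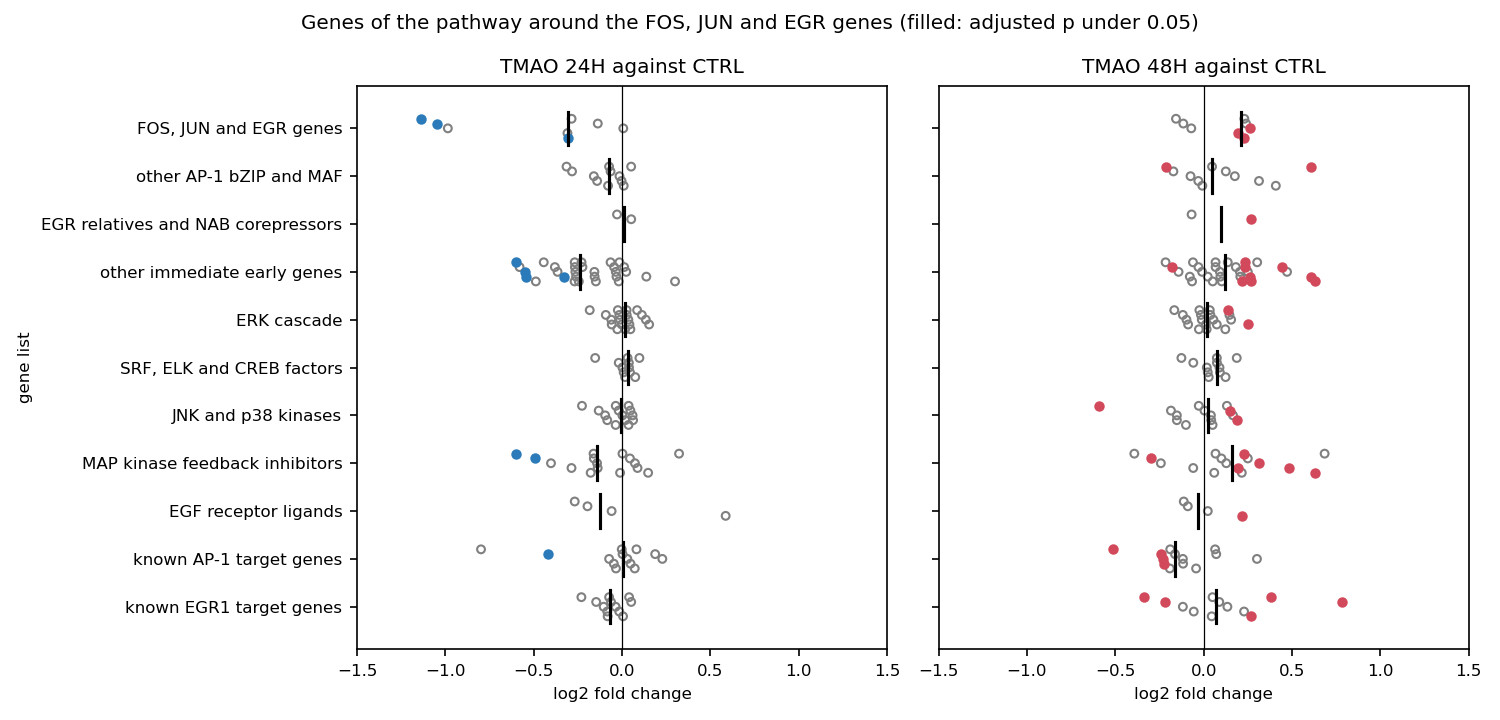
Log2 fold changes (x axis) of the tested genes of each list (points, filled where the adjusted p of edgeR is under 0.05) for TMAO 24H and TMAO 48H against CTRL, with the median of each list as a bar. The other immediate early genes have a median of -0.237 at 24H and 0.12 at 48H, and the ERK cascade 0.0176 and 0.0169.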

How the data were processed

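RNA sequencing of HMEC-1 gave 9 libraries in 3 groups of 3. The authors' pipeline was nf-core RNAseq 3.6. The deposited values are expected counts that the authors estimated for each gene symbol and did not normalise. The submitters' processing notes also name Trim Galore. The genome build, annotation and strand setting are not given in the sources used here. JUNB shares 259 exonic bases with HOOK2 on the opposite strand, and EGR3 shares 164 with AC055854.1 (GENCODE 29, GRCh38), so reads of these pairs may not be separable.

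Counts were rounded to whole numbers and fitted with edgeR 4.0.16 in R 4.3.3 (filterByExpr, TMM, quasi-likelihood fit of all 9 libraries with group as the only term). P-values were adjusted by Benjamini-Hochberg over 14740 genes. A gene was called when its adjusted p was under 0.05 and it changed 1.4-fold or more. Normalised counts are counts divided by the effective library size and multiplied by its mean (30416647). An exact permutation test of 3 against 3 cannot go below p = 0.1. Ratios of summed counts have exact 95% intervals. The 10 genes and all lists were chosen with earlier results of these data known. From each list, genes past the threshold were named, at most 4 per comparison by smallest p, and 5 genes of like pattern for FOS, JUN and EGR1. The scripts were tested on simulated data in which 200 genes were changed 2-fold at 24H. They called 195 of these and 11 unchanged genes, and 5 genes in a comparison where none was changed. DESeq2 1.42.0, other filters and scalings, and leaving out each library were tried as alternatives. Replicate libraries differed by more than counting noise in all 9 pairs within groups. Some genes that these rules select are not reported here.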

Additional observations from a re-analysis of the deposited data

Results flagged for a closer look

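Among the 134 members and list genes tested, 15 had all 3 libraries at 24H below every control and all 3 at 48H above every control, and also differed between 48H and 24H in the direct test. Over all genes tested, 101 (0.685%) had libraries placed this way. That share was counted without the direct test, so it is not on the same criterion as the 15. The 2 members were JUN, with a log2 difference between 48H and 24H of 0.572, and FOSL1, with 0.366, given without a p-value. Of the other immediate early genes and inhibitors, DUSP1 differed by 1.23, CYR61 by 0.989, SPRY2 by 0.976, NR4A1 by 0.96 and CTGF by 0.73. DUSP5 differed by 0.602, SGK1 by 0.57, MYC by 0.562, GADD45B by 0.535, CITED2 by 0.484 and HBEGF by 0.484. KLF6 differed by 0.366 and DUSP6 by 0.334. The adjusted p of edgeR was highest for NR4A1 (0.00241) and lowest for CYR61 (1.76e-06). The placement of the libraries already puts 48H above 24H. The direction of the direct test was thus fixed, and its p-values add no separate support. Groups of 3 libraries were not screened for single outlying values.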

How the results depend on the processing

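Of 432 alternative values for fold changes of the FOS, JUN and EGR genes, no called one changed sign and 425 moved by less than the spread between replicates. Of 846 values for the other named genes, 707 stayed on their side of the threshold, 139 lost it and none reversed. At 24H, where 7 genes and 2 members were called, DESeq2 called 11 genes and no fold minimum 14. A test against the 1.4-fold minimum itself (glmTreat) called 0 genes and 0 members, with 87 genes at an unadjusted p under 0.05. With a replicate block, 1 gene and 1 member (FOS) were called at 24H, and 1 member and 0 list genes passed at any fold. The block gave 17 list genes at 48H instead of 29, and called 214 genes at 48H and 213 between the time-points, but the numbers are not shown to pair the samples (r of deviations from group means -0.12 to 0.091 over 9 same-numbered pairs). At any fold at 24H, DESeq2 passed 5 members instead of 3 (JUNB and JUND as well) and 13 list genes instead of 6. At 48H, 265 genes were called, 1537 without a fold minimum and 23 by glmTreat, and members went from 0 to 3 without it. Between the time-points 252 genes were called, 1110 without a fold minimum and 50 by glmTreat, and members went from 3 to 6.

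Leaving out 1 library in turn gave 0 to 9 genes called at 24H, 187 to 339 at 48H and 193 to 257 between the time-points. Members called ranged from 0 to 2, 0 to 0 and 3 to 4, and members past the threshold at any fold from 0 to 3, 1 to 4 and 4 to 7. List genes ranged from 0 to 8, 16 to 30 and 26 to 33. EGR2 and EGR3 fell under the count filter, and depth limits what can be said of them. The cause of the changes between settings was not tested.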
